A study of Mus musculus with 12 samples.

Results

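The myeloid transcription factor genes Cebpa, Cebpb, Cebpd, Cebpe, Spi1, Irf8 and Gfi1 were followed through the peak lists of 2 histone marks. These 7 genes were taken by symbol out of 21883 protein-coding genes in the RefSeq table, and in each of 8 libraries every listed peak within 10 kb of a gene span was collected. The cells were Lin-cKit+ bone marrow cells, a fraction rich in stem and progenitor cells, of C57BL/6 mice, sorted 4 days after poly(I:C), a mimic of viral RNA that sets off an interferon response. The knockout (KO) mice carried Mx1Cre and floxed Ints11 alleles (written flox/fox in the labels). In them the interferon-responsive Mx1 promoter drives the recombinase in any cell that answers interferon, so deletion is not confined to blood cells. The wild-type (WT) mice were littermates whose cells were taken at the same time after poly(I:C), so both genotypes had passed through an interferon response. Neither ages nor the Cre status of the littermates is given in the labels. The series gives 2 mice per genotype, read here from the numbers in the sample names as KO_399, KO_401, WT_407 and WT_409, and each mouse gave 1 H3K27me3 and 1 H3K4me3 library. Ints11 is the RNA endonuclease of Integrator, a complex that cleaves nascent transcripts of RNA polymerase II.

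H3K4me3 marks promoters that are active or poised, and H3K27me3 is laid down by Polycomb repressive complex 2 at silenced or poised genes. When both lie on one promoter it is called bivalent. The C/EBP factors are basic leucine zipper proteins. Cebpa is required to form granulocyte-macrophage progenitors, Cebpb carries emergency granulopoiesis, Cebpe drives late neutrophil maturation, and Cebpd is an acute-phase member of the family. Spi1 encodes the ETS factor PU.1, needed for myeloid and B lymphoid development. Irf8 encodes the interferon regulatory factor that directs monocyte and dendritic cell fate. Gfi1 encodes a zinc finger transcriptional repressor that promotes granulocyte differentiation and restrains monocyte genes.

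All 7 genes had H3K4me3 in all 4 libraries, and Irf8 was the 1 member with H3K27me3 in all 4. Among all protein-coding genes the shares were 66.8% for H3K4me3 and 21.2% for H3K27me3. At Irf8, H3K27me3 covered 3144 ± 249 bp in KO and 5369 ± 25.5 bp in WT (SD, n = 2 each), with both KO mice below both WT mice, as at 71.2% of 7373 genes with the mark. Cebpa had a listed H3K27me3 peak in 1 mouse of each genotype, and the other 5 members had none in any library. At Cebpa, Cebpb and Gfi1 both KO mice had longer H3K4me3 than either WT mouse, and the genotypes overlapped at the other 4. Over 15689 genes with H3K4me3, 21.7% were higher in this way. With 2 mice against 2, a two-sided exact permutation test over 6 labelings reaches p = 0.33 at the lowest, so no difference here can pass 0.05. "Higher" and "lower" below describe whether the mice overlapped.

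**Figure D1:**
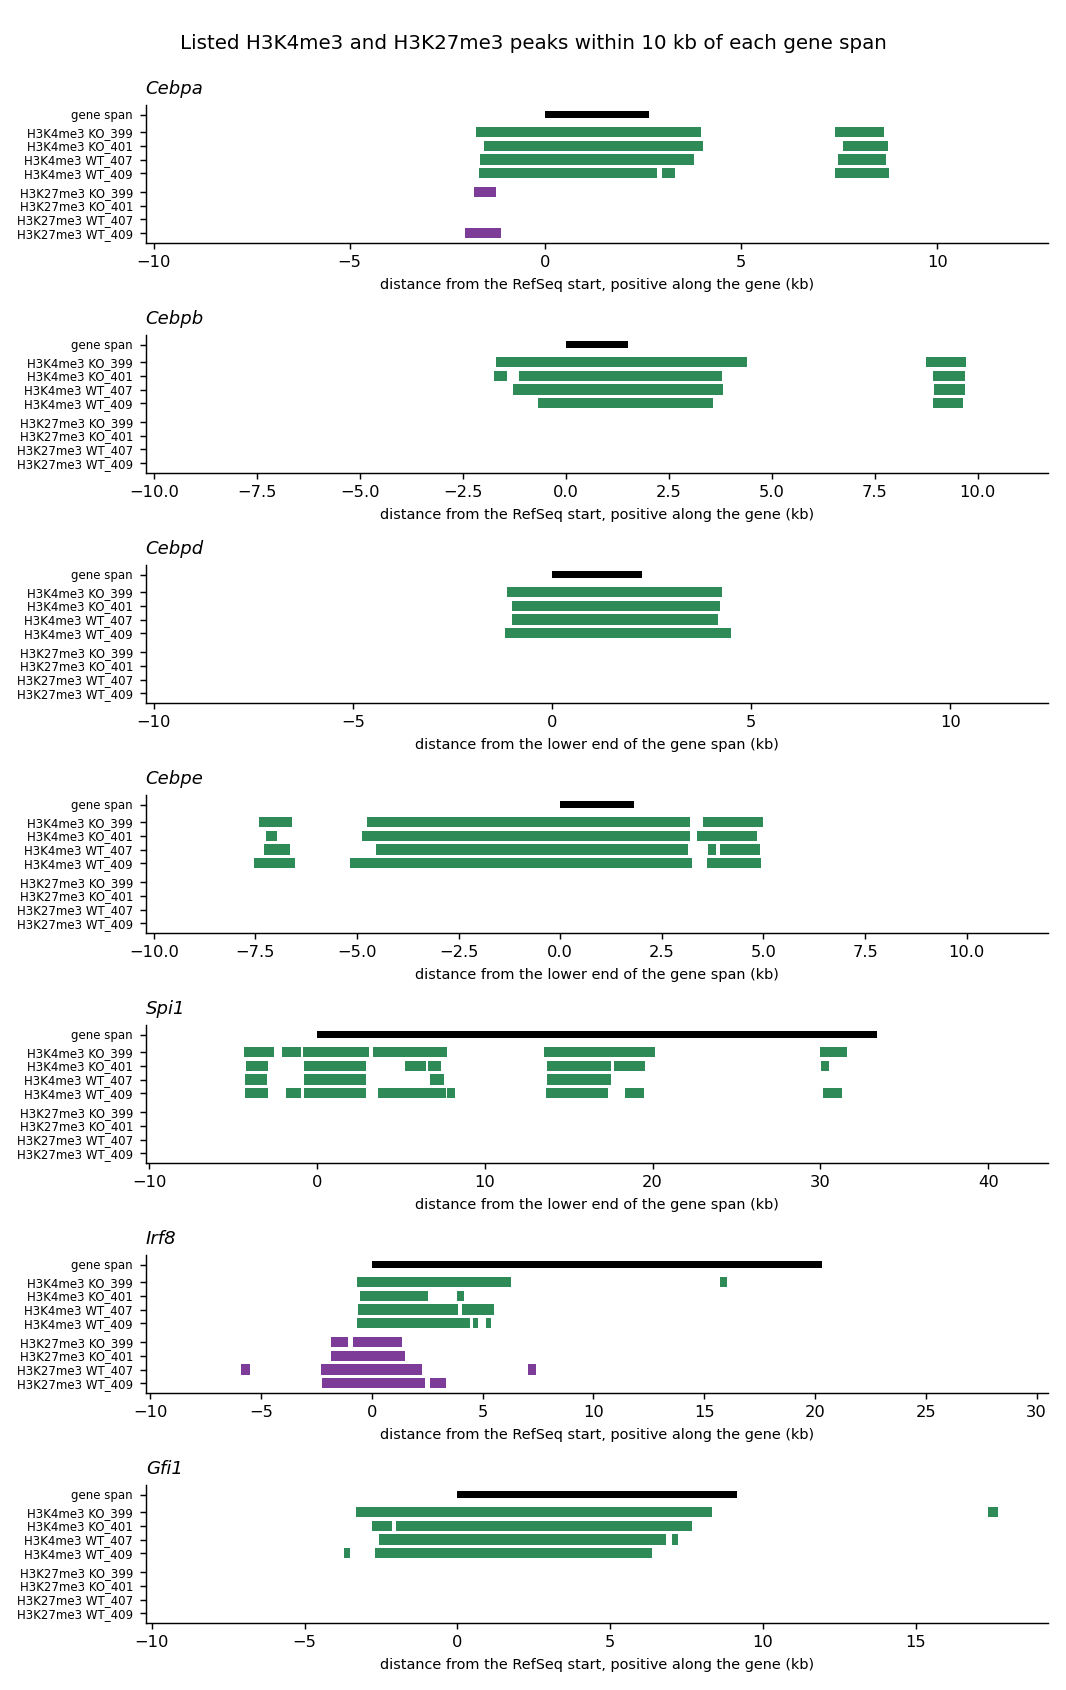
Each bar is 1 listed peak, drawn along its distance in kb from the RefSeq start of the gene or, for Cebpd, Cebpe and Spi1, from the lower end of the gene span; the 8 rows of each panel are the H3K4me3 (green) and H3K27me3 (purple) libraries, with the gene span in black. H3K4me3 lay over every gene in all 4 mice, whereas H3K27me3 was drawn at Irf8 in all 4 and at Cebpa in KO_399 and WT_409.

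The lists held 25090 to 27676 H3K4me3 peaks covering 36.7 to 44.5 Mb and 6542 to 11930 H3K27me3 peaks covering 15.2 to 34.5 Mb, each called in a single mouse. KO_399 had the most H3K4me3 (44.5 Mb) and the least H3K27me3 (15.2 Mb). Read totals were not part of these lists, so the depth is unknown. Every listed peak had a fold enrichment above 5, as the authors' lists give it, and the peak numbers skipped values. Of those numbers, 66.7% to 78.0% were listed for H3K4me3 and 24.8% to 36.5% for H3K27me3. A site without a listed peak may therefore hold a called peak of a lower fold. Around Ints11 itself H3K4me3 covered 9694 and 7797 bp in KO_399 and KO_401, against 6916 and 7080 bp in WT_407 and WT_409, and a peak list of this mark does not check the deletion. Marker genes of the sorted progenitors carried H3K4me3 in every library (6 of 6, Kit and Cd34 among them). For B lymphoid markers 7 and 6 of 8 had it in KO_399 and KO_401 and 6 and 8 in WT_407 and WT_409, with 26583 and 16781 bp in the KO and 15058 and 41314 bp in the WT mice. For erythroid markers the numbers were 3 and 3 of 7 in the KO and 3 and 6 in the WT mice, with 9967 and 8664 bp against 8568 and 13520 bp. Il7r, Hbb-bs, Hbb-bt and Slc4a1 were at 0 in all libraries but WT_409, and Alas2 was at 0 in all 4.

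RefSeq promoter sequences (GRCm38.p6, the coordinates of mm10), from 250 bases before to 50 after a start, were at hand for Cebpa, Cebpb, Irf8 and Gfi1. Those of Cebpa, Cebpb and Irf8 are shown. H3K4me3 covered all 300 bases of each window in every mouse, those of Gfi1 included, whereas H3K27me3 reached windows of Irf8 alone. Irf8 has a pair of starts, and they differ in base composition and in H3K27me3. Capitals mark matches to any of 5 motifs searched on both strands: the TATA box TATAAA, the C/EBP half-site TTGCG, the PU.1 site GAGGAAGT, the IRF site (GAAA, any 2 bases, then GAAA) and the CCAAT box. No match overlapped another.
Cebpa (chr7:35119043-35119342, plus strand): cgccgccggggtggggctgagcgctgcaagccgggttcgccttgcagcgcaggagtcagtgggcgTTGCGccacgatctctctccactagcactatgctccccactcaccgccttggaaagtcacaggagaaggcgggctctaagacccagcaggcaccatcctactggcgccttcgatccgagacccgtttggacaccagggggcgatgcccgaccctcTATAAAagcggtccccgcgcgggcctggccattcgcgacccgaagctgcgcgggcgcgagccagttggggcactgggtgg
Cebpb (chr2:167688665-167688964, plus strand): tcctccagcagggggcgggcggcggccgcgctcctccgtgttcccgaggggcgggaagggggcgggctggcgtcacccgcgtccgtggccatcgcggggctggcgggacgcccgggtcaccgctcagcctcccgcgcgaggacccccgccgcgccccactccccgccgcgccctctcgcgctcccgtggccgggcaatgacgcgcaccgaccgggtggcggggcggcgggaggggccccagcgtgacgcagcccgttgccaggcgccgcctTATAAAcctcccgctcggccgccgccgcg
Irf8, first start (chr8:120736108-120736407, plus strand): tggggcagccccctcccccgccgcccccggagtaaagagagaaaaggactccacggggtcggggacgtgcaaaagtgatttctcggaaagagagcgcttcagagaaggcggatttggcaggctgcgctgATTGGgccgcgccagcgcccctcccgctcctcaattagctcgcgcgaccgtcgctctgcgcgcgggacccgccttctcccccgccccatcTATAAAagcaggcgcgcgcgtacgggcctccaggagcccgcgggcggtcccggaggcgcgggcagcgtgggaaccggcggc
Irf8, second start (chr8:120738389-120738688, plus strand): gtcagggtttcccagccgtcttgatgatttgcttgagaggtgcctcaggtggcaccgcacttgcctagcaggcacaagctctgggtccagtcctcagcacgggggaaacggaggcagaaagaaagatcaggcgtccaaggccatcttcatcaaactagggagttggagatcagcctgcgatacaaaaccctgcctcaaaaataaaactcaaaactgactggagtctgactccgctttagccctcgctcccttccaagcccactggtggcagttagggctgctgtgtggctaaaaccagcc
The number of CpG dinucleotides was 29 at Cebpa, 50 at Cebpb, and 38 and 8 at the first and second start of Irf8, against a median of 7 over 32851 promoters. Gfi1, on the minus strand, had 16 at its upstream start and 10 at the other. TATAAA began 30 bases before the start of Cebpa (position -30), at position -31 of the first Irf8 start and at position 22 of Cebpb, counted from 1 at the start base with no position 0. It occurs in 13.6% of the promoters. TTGCG stood at -185 of Cebpa (17.4% of promoters), and the CCAAT box stood on the other strand at -121 of the first Irf8 start (37.4%). Neither GAGGAAGT (3.20% of promoters) nor the IRF site (3.44%) is written in the 6 windows of these 4 genes. A match describes letters and shows no binding.

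Irf8, on chromosome 8 from 120736358 to 120756694, was the member with both marks in all 4 mice. Its H3K27me3 totalled 2968 bp in KO_399 and 3320 bp in KO_401, against 5351 bp in WT_407 and 5387 bp in WT_409. The KO values lay 2031 bp or more below the WT values, and the spread within a genotype was 352 bp in KO and 36 bp in WT. The difference, -2225 bp (KO minus WT), gave the smallest p the design allows (two-sided exact permutation p = 0.33, n = 2 each, and 0.468 after Benjamini-Hochberg adjustment over 7373 genes with the mark). Of these 7373 genes, 71.2% were lower in both KO mice and 0% higher, so the direction at Irf8 was that of most marked genes. Irf8 had 58.6% of its WT length, whereas the median over 4642 genes marked in all 4 libraries was 66.7% (quartiles 55.7% and 76.9%). In a pool of cells, fewer cells with the mark and a shorter stretch of it in each cell cannot be told apart. The KO lists were also smaller as a whole. H3K27me3 covered 15.2 and 23.1 Mb in KO_399 and KO_401, against 34.5 and 31.5 Mb in WT_407 and WT_409, at unknown depth. The part of list size in the difference at Irf8 cannot be told apart from a change of the mark.

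The KO mice were lower on both sides of the first start. The block that all 4 mice shared ran from -1.82 to 1.5 kb of that start in KO_401, and in KO_399 it was broken into a peak from -1.82 to -1.07 kb and another from -0.854 to 1.36 kb. In WT_407 it ran from -2.29 to 2.26 kb and in WT_409 from -2.25 to 2.41 kb. Counting all peaks in the window, H3K27me3 before the start covered 1605 and 1822 bp in KO_399 and KO_401, against 2710 and 2250 bp in WT_407 and WT_409. After it, the mark covered 1363 and 1498 bp in the KO mice, against 2641 and 3137 bp in the WT mice. The promoter window of the first start was covered over all 300 bases in every mouse. The window of the second start, further into the gene, had no H3K27me3 in either KO mouse and 234 and 300 bp in WT_407 and WT_409. Each WT list also held small peaks apart from the block, at -5.90 and 7.04 kb in WT_407 and at 2.64 kb in WT_409, with deposited folds of 5.13 to 5.87, just over the floor of 5.

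The strongest H3K27me3 peak at Irf8 had a deposited fold of 8.14 in KO_399 and 9.63 in KO_401, and of 11.2 in WT_407 and 11.6 in WT_409. By −log10 q these peaks stood at percentiles 67.7 and 63.6 of the KO lists and 73.5 and 67.9 of the WT lists. Lists cut to a common size gave differing directions. Cut to equal peak numbers, Irf8 had 2968 and 3320 bp in KO and 4554 and 4658 bp in WT. Cut to equal covered length, the stronger peaks being kept, it had 2968 and 3320 bp in KO and 0 bp in both WT mice, because the WT lists then ended above the Irf8 peak. At a fold of at least 10, KO had 0 bp in both mice and WT 4554 and 4658 bp.

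H3K4me3 at Irf8 did not separate the genotypes. It covered 7286 bp in KO_399 and 3339 bp in KO_401, against 5985 bp in WT_407 and 5554 bp in WT_409 (exact permutation p = 1, n = 2 each). KO_399 was above and KO_401 below both WT mice, so the mean difference turned with the KO mouse left out (KO minus WT was 1516.5 bp without KO_401 and -2430.5 bp without KO_399). The mark began between -0.682 and -0.522 kb of the first start in all 4 mice and differed in how far it reached into the gene, from 2.52 kb for the main peak of KO_401 to 6.28 kb in KO_399. Its strongest peak was the weakest of the 7 members in every library by −log10 q, at percentiles 54.2 and 47.4 in KO and 55.7 and 56.9 in WT.

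Bases under both marks at Irf8 numbered 2045 in KO_399 and 2020 in KO_401, against 2880 in WT_407 and 3793 in WT_409. Both KO mice were lower (exact permutation p = 0.33, n = 2 each). These bases made up 68.9% and 60.8% of the H3K27me3 in KO and 53.8% and 70.4% in WT, so the genotypes overlapped in that share. Whether both marks lay on the same chromosomes or in different cells was not tested.

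**Figure D2:**
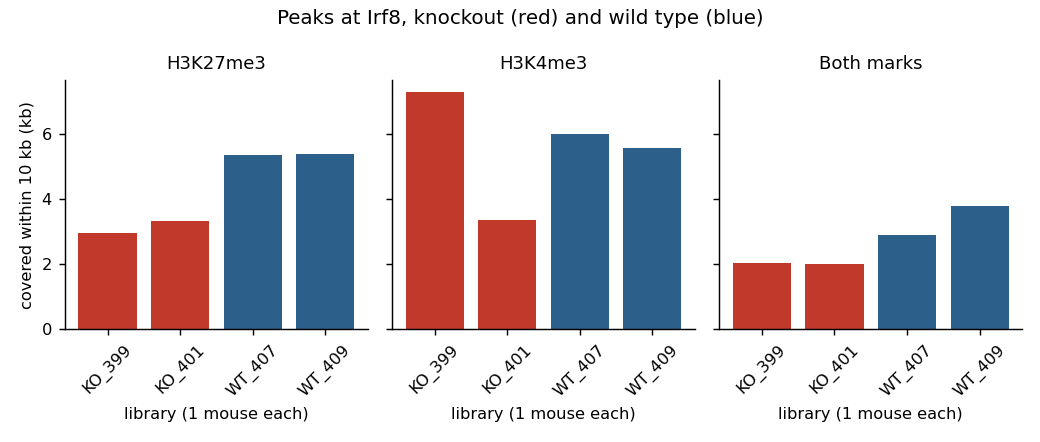
Bars give the length in kb covered at Irf8 by H3K27me3 peaks, by H3K4me3 peaks and by both, with 1 bar per mouse and KO (red) left of WT (blue). H3K27me3 was 2968 and 3320 bp in KO and 5351 and 5387 bp in WT, whereas the H3K4me3 of KO_399 and KO_401 lay on either side of the WT mice.

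Cebpa, on chromosome 7 from 35119293 to 35121928, had H3K27me3 in KO_399 (568 bp) and WT_409 (916 bp) and a listed value of 0 bp in KO_401 and WT_407. The genotypes overlapped (exact permutation p = 1, n = 2 each). Both peaks lay upstream of the start, at the edge of the H3K4me3 domain, with summits at -1.44 kb in KO_399 and -1.37 kb in WT_409. Their deposited folds were 5.41 and 9.15, and by −log10 q they stood at percentiles 21.9 and 55.8 of their lists. Between the listed peaks that flank Cebpa, 3 peak numbers were left out in KO_401 and 13 in WT_407, so a called peak under the floor cannot be told from none. The bases under both marks were 514 in KO_399 and 574 in WT_409.

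Peak numbers rose with position on every chromosome in all 8 lists, so a number left out marks a called peak that is not listed. No H3K27me3 peak lay within 10 kb of Cebpb, Cebpd, Cebpe, Spi1 or Gfi1. The nearest listed peak was 126 to 127 kb from Cebpb, 309 to 323 kb from Cebpd, 67.8 to 133 kb from Cebpe, 136 to 138 kb from Spi1 and 310 to 311 kb from Gfi1. For Cebpd and Gfi1 in KO_399, Cebpe in KO_401 and WT_407, and Spi1 in WT_409, no peak number was left out between the flanking peaks, so no called peak lay there at any fold. In the other libraries 1 to 13 numbers were left out across flanking gaps of 139 to 1130 kb.

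H3K4me3 formed long domains at all members. The strongest peak in the window had a median width of 6618 bp in KO_399 and 5217 bp in KO_401, against 5166 bp in WT_407 and 5069 bp in WT_409. Over all protein-coding genes with a peak, the strongest peak had a median width of 2249 and 2034 bp in the KO mice and 2007.5 and 2067 bp in the WT mice. The members' strongest peaks stood between percentiles 90.2 and 100 of width in their own lists. Their deposited folds ran from 14.2 (Irf8 in KO_401) to 74.1 (Cebpd in KO_401). The genes of Cebpa, Cebpb, Cebpd and Cebpe are short, and H3K4me3 covered 100% of their spans in every mouse.

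Of the 7 members, 3 (42.9%) had more H3K4me3 in each KO mouse than in either WT mouse and none had less, against 21.7% higher and 3.54% lower of 15689 genes with the mark. None of the 7 could pass the exact test at 0.05, and each p adjusted over these genes was 1. The median member had 106% of its WT length in KO (range 92.1% to 125%), against 105% over 14624 genes marked in all 4 libraries (quartiles 100% and 112%). The count of 3 was 5 without KO_401 and 6 without WT_409. KO_399, the library with the most H3K4me3, was longest at 5 of the 7 members, and its part in these differences was not tested.

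**Figure D3:**
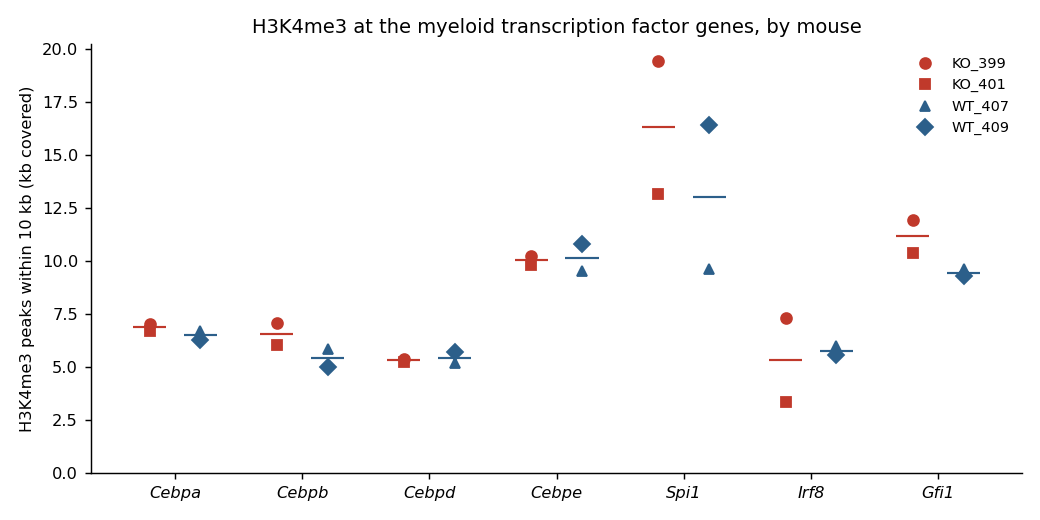
Points give the length in kb covered by H3K4me3 peaks within 10 kb of each gene, 1 point per mouse, with KO (red) left of WT (blue) and a line at each mean (n = 2). The mice of the genotypes separate at Cebpa, Cebpb and Gfi1, and Spi1 spreads most in covered bases, from 9605 bp in WT_407 to 19419 bp in KO_399.

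Gfi1, on chromosome 5 from 107716655 to 107725805, had the longest single domain. H3K4me3 totalled 11930 bp in KO_399 and 10363 bp in KO_401, against 9614 bp in WT_407 and 9274 bp in WT_409. Both KO mice lay above both WT mice by 749 bp or more (118% of WT, exact permutation p = 0.33, n = 2 each). The mark covered 90.9% and 84.0% of the gene span in the KO mice and 76.9% and 69.7% in the WT mice. The share of WT_407 counts a separate peak of 218 bp. Within the gene span H3K4me3 covered 8321 and 7686 bp in KO_399 and KO_401, against 7036 and 6377 bp in WT_407 and WT_409. Before the start the genotypes overlapped, with 3302 and 2677 bp in KO against 2578 and 2897 bp in WT. These values count separate peaks of 666 bp in KO_401 and 208 bp in WT_409. The total of KO_399 also holds a separate peak of 307 bp past the far end of the gene. The summit lay 2.02 and 2.05 kb inside the gene in KO_399 and KO_401 and 2.55 and 2.05 kb inside in WT_407 and WT_409. The order held at windows of 2, 5 and 25 kb.

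Cebpb, on chromosome 2 from 167688915 to 167690432, had H3K4me3 over 7076 bp in KO_399 and over 6021 bp in KO_401, against 5847 bp in WT_407 and 4983 bp in WT_409 (121% of WT, exact permutation p = 0.33, n = 2 each). The gap between the nearest mice, KO_401 and WT_407, was 174 bp and smaller than the spread within either genotype. Upstream of the start the mark covered 1707 and 1458 bp in KO, against 1273 and 677 bp in WT. A second, separate region lay 8.74 to 9.71 kb beyond the start, past the upper end of the long noncoding RNA gene A530013C23Rik (chromosome 2, 167690759 to 167697413). It was 973 and 774 bp long in KO and 754 and 740 bp in WT.

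H3K4me3 at Cebpa covered 7011 bp in KO_399 and 6711 bp in KO_401, against 6679 bp in WT_407 and 6283 bp in WT_409 (106% of WT, exact permutation p = 0.33, n = 2 each). The nearest mice were 32 bp apart. The order was lost at a window of 5 kb, with 5997 and 5618 bp in KO and 5627 and 5155 bp in WT, and the mean difference was -14 bp (KO minus WT) for peaks with a fold of at least 10. The main domain began between -1.78 and -1.56 kb of the start, and a second region 7.38 to 8.76 kb beyond the start was listed in all 4 mice, below the lower ends of the long noncoding RNA genes Gm35724 and Gm51475.

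Cebpd and Cebpe did not separate the genotypes. Cebpd, on chromosome 16 from 15887286 to 15889545, had a single domain of 5383 and 5217 bp in KO_399 and KO_401 and of 5166 and 5683 bp in WT_407 and WT_409 (exact permutation p = 1, n = 2 each). Its strongest peak had the highest deposited fold of the 7 members in each of the 4 lists. The domain also covers the lower end of Spidr, a DNA repair gene that overlaps Cebpd by 322 bp, so the mark cannot be assigned to either gene alone. Cebpe, on chromosome 14 from 54710363 to 54712174, had 10250 and 9815 bp in KO_399 and KO_401 and 9511 and 10791 bp in WT_407 and WT_409 (exact permutation p = 1, n = 2 each). It held 3 regions in every mouse, the longest of 7937 and 8080 bp in KO and of 7664 and 8422 bp in WT. For both genes the sign of the mean difference turned without WT_409, to 134 bp more in KO at Cebpd and 521.5 bp more at Cebpe. The mean difference at Cebpe (KO minus WT), -118.5 bp, was above 0 under 6 of 13 alternatives, among them windows of 2, 5 and 25 kb (173, 266 and 434.5 bp). At the window of 2 kb both KO mice were above both WT mice.

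Spi1, on chromosome 2 from 91082374 to 91115759 and the member with the longest span, varied most between mice in covered bases. In proportion Irf8 varied slightly more, from 3339 bp in KO_401 to 7286 bp in KO_399. H3K4me3 at Spi1 covered 19419 bp in KO_399 and 13172 bp in KO_401, against 9605 bp in WT_407 and 16386 bp in WT_409 (exact permutation p = 0.667, n = 2 each). WT_409 lay between the KO mice, so the genotypes overlapped. Of 7 regions over all mice, 4 were present in each mouse. The strongest began 13.5 kb above the lower end of the span and held 6618 and 5703 bp in KO and 3859 and 4842 bp in WT. The region over the lower end itself hardly varied, at 3909 and 3680 bp in KO and 3663 and 3677 bp in WT. The region from 3.36 to 7.72 kb varied most, with 4362 and 2012 bp in KO and 811 and 4059 bp in WT. Another, at 30.0 to 31.6 kb, held 1617 and 457 bp in KO, 0 bp in WT_407 and 1122 bp in WT_409. The direction of Spi1 rested on WT_407: without it KO was 90.5 bp below WT_409 on average.

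The summed H3K4me3 of mature neutrophil markers ordered the 4 mice as Cebpe and Cebpd did, with WT_407 lowest and WT_409 highest. The sums of the B lymphoid and erythroid markers gave the same order, so it was not particular to neutrophil genes. All 7 neutrophil markers (Ly6g, Mmp8, Ltf, Camp, Ngp, Cxcr2 and S100a8) had H3K4me3 in every library, with 54249 and 45699 bp in KO_399 and KO_401 and 31886 and 60429 bp in WT_407 and WT_409. Ly6g and Cxcr2 departed from that order. Ly6g had 3001 and 2716 bp in KO against 2117 and 2676 bp in WT, and Cxcr2 had 7660 and 5656 bp in KO against 4885 and 5155 bp in WT, so at both genes both KO mice were above both WT mice. At Ly6g the nearest mice, KO_401 and WT_409, lay closer together than the WT mice did. Monocyte and macrophage markers had H3K4me3 at 6 and 4 of 6 in the KO and 5 and 3 in the WT mice, with 9720 and 6005 bp against 9267 and 5445 bp. For T and NK markers it was 5 of 7 in every library, with 20976 and 16908 bp in KO and 18650 and 17068 bp in WT, and Cd3e and Cd8a were at 0 in all 4. The share of these cell types in the sorted fraction and its part in the results at the members were not tested.

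**Figure D4:**
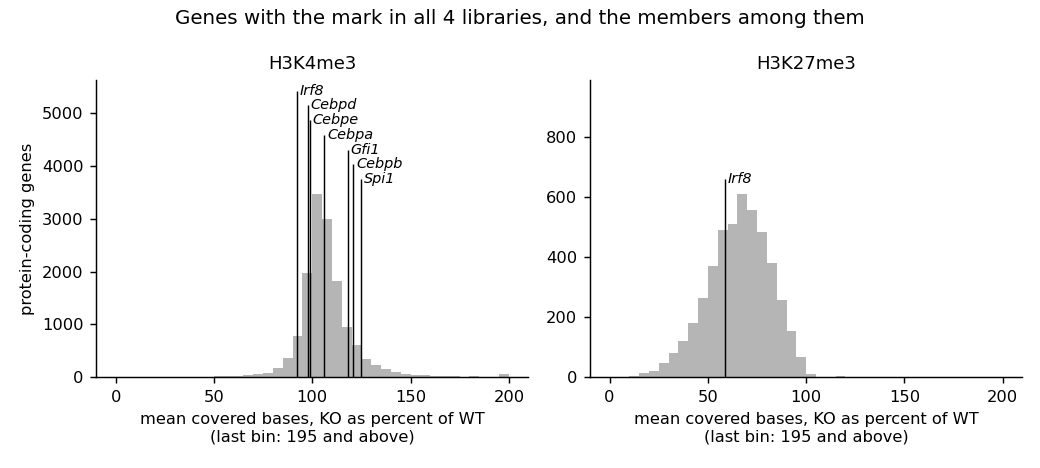
Grey bars count protein-coding genes with the mark in all 4 libraries by their mean covered bases in KO as a percent of WT (the last bin is open-ended), and black lines mark the members. H3K4me3 members lie from 92.1% (Irf8) to 125% (Spi1) around the median of 105%, and Irf8 lies at 58.6% for H3K27me3, below the median of 66.7%.

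The wider myeloid network was taken as 48 genes in 4 lists of relatives, partners and inhibitors, receptors, and effector targets. H3K4me3 was present at all 48 in at least 1 library and at 46 in all 4, the exceptions being the PU.1 relative Spic and the chemokine receptor Cx3cr1. More H3K4me3 in each KO mouse than in either WT mouse was found at 7 of the 48 (14.6%, against 21.7% of all marked genes) and less at 1 (2.08%, against 3.54%). The 7 were 3 of the 9 receptors (Csf3r, Csf2rb and Csf2ra), 3 of the 18 partners and inhibitors (Jun, Cbfb and Zfp36l1) and Ly6g. Csf3r, the G-CSF receptor that C/EBP factors activate, had 9929 and 9019 bp in KO_399 and KO_401 against 7212 and 8875 bp in WT_407 and WT_409. Csf2rb, the common beta chain, had 8009 and 6536 bp in KO against 5703 and 5309 bp in WT, and Csf2ra had 3597 and 3068 bp against 2627 and 2987 bp. At Csf3r and Csf2ra the nearest mice, KO_401 and WT_409, lay closer together than the WT mice did. Csf1r, the M-CSF receptor and a PU.1 target, overlapped, with 2828 and 1176 bp in KO and 2464 and 1462 bp in WT. Jun, the AP-1 factor that works with PU.1 in monocytes, had 6121 and 5590 bp in KO against 4817 and 4966 bp in WT. Cbfb had 6163 and 5273 bp against 5039 and 5123 bp, and Zfp36l1 had 8033 and 7039 bp against 5924 and 5797 bp. Klf4, a monocyte factor downstream of PU.1, was the gene with less, at 3820 and 3672 bp in KO against 4281 and 3955 bp in WT. Its nearest mice, KO_399 and WT_409, also lay closer together than the WT mice did. Each of these differences between KO and WT had an exact permutation p of 0.33 (n = 2 each) except that of Csf1r (p = 1).

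H3K27me3 in the network was found at 16 of the 48 genes in any library and at 12 in all 4. It was lower in both KO mice at 11 of the 16 (68.8%, against 71.2% of all marked genes) and higher at none. Relatives held it at 4 of 9. Spib, the lymphoid relative of PU.1, had 1019 and 1253 bp in KO_399 and KO_401 against 3770 and 1893 bp in WT_407 and WT_409. Gfi1b, the erythroid and megakaryocyte paralogue of Gfi1, had 0 and 1116 bp in KO against 3161 and 1390 bp in WT, while Gfi1 itself had none in any mouse. Irf4 and Irf5, relatives of Irf8, overlapped between genotypes, with 2462 and 3405 bp in KO against 4304 and 3206 bp in WT for Irf4 and 3220 and 3451 bp against 3007 and 3736 bp for Irf5. Partners and inhibitors held the mark at 11 of 18, and 8 of these were lower in both KO mice. Among them Egr2, a macrophage factor that Gfi1 opposes, had 5060 and 5391 bp in KO against 6760 and 6714 bp in WT. Id2, an inhibitor of basic helix-loop-helix factors, had 4768 and 5522 bp against 5905 and 8480 bp. Trib1, a pseudokinase that directs C/EBP-alpha to degradation, had 0 and 814 bp against 1442 and 1440 bp. The genotypes overlapped at Klf4, Egr1 and Id1. Klf4 had 4586 and 5770 bp in KO against 5227 and 6413 bp in WT, and Egr1 had 2065 and 2883 bp against 2646 and 3170 bp. Id1 had H3K27me3 in WT_409 alone (2532 bp). Of the 9 receptors, Flt3 was the 1 with H3K27me3, at 2702 and 3480 bp in KO against 5113 and 4082 bp in WT. None of the 12 effector targets, granule genes such as Mpo and Elane among them, had H3K27me3 in any library, and all 12 had H3K4me3 in all 4.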

How the data were processed

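Reads of 75 bp came from formaldehyde-fixed chromatin, per the labels' protocols. The tools named in the submitters' processing notes are MACS2, deepTools, Bowtie2, SAMtools, Trim Galore and FastQC, with build mm10. Versions, the control for peak calling and the filter of the lists are not given in the sources used here. The authors deposited 1 narrowPeak list per immunoprecipitated library, so mice were not pooled. In each, the deposited score is 10 times −log10 q cut to a whole number, the deposited fold is a ratio at the summit over background, and p and q are deposited as −log10 values. These served to rank, filter and describe peaks inside 1 list. The 4 input libraries were not analysed here.

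Peaks were clipped to the RefSeq gene span (GRCm38.p6) plus 10 kb on each side, with at least 1 bp inside, and covered bases were summed per library with Python 3.11.15, numpy 2.4.6 and pandas 2.3.3. Protein-coding genes on the numbered chromosomes, X and Y were processed alike. Both KO mice on one side of both WT mice was the call, beside a two-sided exact permutation test with Benjamini-Hochberg adjustment over all genes with the mark. The code was tested on simulated data. The named genes were the 7 members, some genes in their windows and, of 4 fixed lists, some genes with H3K27me3 or with separated genotypes. Not every gene of these kinds was named. A few more bear on a sentence (Csf1r, Spic, Cx3cr1, Mpo, Elane and markers) and were chosen after their values were seen. Members and lists were chosen with earlier results of these data known. No label gives a batch. Alternatives were other windows, overlaps, thresholds and ways to equalise the lists, and leaving out each mouse.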

Additional observations from a re-analysis of the deposited data

How the results depend on the processing

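The counts of members held under most of 13 alternatives. H3K4me3 was present at 7 members in all 4 libraries under each of them. Counts of H3K27me3 moved as follows: at a fold of at least 10 the members marked in all 4 libraries were 0, with lists cut to equal covered length the members marked in all 4 and the members lower in both KO mice were both 0, and over the mice left out the members lower in KO ranged from 1 to 2 (2 without WT_407). The number marked in all remaining libraries was 1 whichever mouse was left out. Members with more H3K4me3 in both KO mice ranged from 3 to 6 over the mice left out and from 2 to 4 over the other settings. The mean differences (KO minus WT) of Cebpb and Gfi1 for H3K4me3 kept their sign under all 13 alternatives, and the other members changed sign under at least 1. H3K27me3 of Irf8 was 3144 bp at equal covered length, and that of Cebpa was 284 bp at equal covered length, 110 bp without KO_401 and 284 bp without WT_409. H3K4me3 of Cebpa was -14 bp and that of Irf8 208.5 bp at a fold of at least 10. Cebpd was 67.5 bp at a window of 25 kb. Cebpe was 173, 266 and 434.5 bp at windows of 2, 5 and 25 kb, 179.5 bp without peaks nearer to another gene and 99 bp without KO_401. Over the mice left out Irf8 ranged from -2430.5 to 1516.5 bp (highest without KO_401), Cebpd from -383 to 134 bp and Cebpe from -758.5 to 521.5 bp (both highest without WT_409). Spi1 was -90.5 bp without WT_407. H3K27me3 of Irf8 reversed because the WT lists then ended above its peak; the cause was not tested for the others. No paired analysis was possible because the labels do not say which KO and WT mice shared a litter. The depth is unknown, and the fold floor of 5 limits what the lists can show at weak sites. At Cebpa the listed H3K27me3 peaks had folds of 5.41 in KO_399, near that floor, and 9.15 in WT_409.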
